A study of Mus musculus with 4 samples.

Results

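The genes of calcium release from, and uptake into, the sarcoplasmic reticulum were followed in hearts with and without the coactivator PIMT. They were chosen by symbol for their known roles and number 10 of the 23337 gene symbols in the data, *Ryr2*, *Fkbp1b*, *Casq2*, *Trdn*, *Asph*, *Hrc*, *Jph2*, *Atp2a2*, *Pln* and *Atp2a1*. All 10 were found and all passed the minimum of 10 reads in every comparison. The controls were PIMT fl/fl mice of strain C57BL6/J at 2 and 6 months of age, in which loxP sites flank part of both PIMT alleles. The csPIMT-/- mice of the same ages carry the same floxed alleles and a Cre transgene under the α-myosin heavy chain promoter, which is active in cardiomyocytes, so that other heart cells keep the gene. RNA of 5 hearts of each group, from males and females, was pooled and made 1 library, so that there were 4 libraries, no replicates and no library from mice with Cre and unfloxed PIMT.

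In the cardiomyocyte each heartbeat begins with a small entry of calcium, which opens the ryanodine receptor of the sarcoplasmic reticulum and releases the stored calcium that drives contraction. The pump SERCA2 then returns the calcium to the store and the muscle relaxes. Phospholamban holds the pump back until it is phosphorylated, and calsequestrin buffers the calcium inside the store and is tied to the receptor by triadin and junctin.

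*Pln*, *Trdn* and *Asph*, for phospholamban, triadin and junctin, were the lowest of the 10 genes in csPIMT-/- hearts over both ages. These 3 passed the test over both ages before adjustment for GC content, where 17.5% of 14847 genes tested were lower. The other 7 did not pass. Of the latter, the ratios of *Ryr2*, *Casq2* and *Atp2a2* were below 1 at both ages, that of *Hrc* was 0.357 at 6 months, and those of *Fkbp1b* and *Jph2* were above 1 at both ages, for *Jph2* until the GC trend was taken out. Across all genes the ratios were lower at low GC content, and the transcripts of *Trdn* and *Pln* have the lowest GC content of the 10. Once that trend had been taken out, no gene passed the test over both ages, of the 10 or of all 13469 fitted. *Tgs1*, the gene of PIMT itself, did not pass then either.

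Sequences are shown for 3 genes, *Pln*, which was low in csPIMT-/- hearts, *Jph2*, which was high, and *Ryr2*, the release channel. RefSeq gave a promoter (GRCm38.p6) for 7 of the 10 genes. The first 3 lines below hold the 250 bases before the transcription start, 5′ to 3′ on the strand of the gene. Capitals mark the E-box, CANNTG, and the GC box, GGGCGG, searched on both strands.
Pln, chr10:53337436-53337685, plus strand: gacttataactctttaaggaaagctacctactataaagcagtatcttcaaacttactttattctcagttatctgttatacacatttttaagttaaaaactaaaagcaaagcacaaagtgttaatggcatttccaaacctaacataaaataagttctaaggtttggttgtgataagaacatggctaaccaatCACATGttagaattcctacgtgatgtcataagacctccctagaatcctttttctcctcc
Jph2, chr2:163397994-163398243, minus strand: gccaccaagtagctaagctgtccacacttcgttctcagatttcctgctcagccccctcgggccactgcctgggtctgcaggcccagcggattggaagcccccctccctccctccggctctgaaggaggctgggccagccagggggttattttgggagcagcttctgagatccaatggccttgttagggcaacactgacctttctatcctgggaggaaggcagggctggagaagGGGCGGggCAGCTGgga
Ryr2, chr13:12106946-12107195, minus strand: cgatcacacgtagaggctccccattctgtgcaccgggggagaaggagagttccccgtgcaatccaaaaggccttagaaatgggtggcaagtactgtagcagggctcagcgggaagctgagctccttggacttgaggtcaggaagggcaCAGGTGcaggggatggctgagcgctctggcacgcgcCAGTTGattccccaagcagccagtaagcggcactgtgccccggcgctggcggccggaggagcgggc
The *Pln* stretch held 1 E-box, which began 59 bases before the start, and no GC box, and its GC content was 32.8%. The *Jph2* stretch held a GC box 17 bases and an E-box 9 bases before the start and had a GC content of 62.0%. Another RefSeq entry for *Jph2*, chr2:163397974-163398223, put the same motifs 37 and 29 bases before its start, with a GC content of 62.8%. The *Ryr2* stretch held E-boxes 102 and 66 bases before the start and had a GC content of 63.2%. Of 32851 RefSeq promoters of this length 66.2% held an E-box and 32.7% a GC box, and their median GC content was 52.4%. Phospholamban is a very small protein, and its whole reading frame, 159 bases or 52 codons and a stop, lies in 1 exon at chr10:53343864-53344022 (GRCm38). It is shown as the gene whose product sets the activity of the pump, with the start and stop codons in capitals.
Pln coding sequence: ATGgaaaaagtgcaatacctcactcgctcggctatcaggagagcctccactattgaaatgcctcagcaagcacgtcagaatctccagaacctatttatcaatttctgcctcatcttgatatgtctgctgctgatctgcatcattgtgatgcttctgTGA

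The libraries held 29823073 to 40705783 reads on genes. *Tgs1*, the gene of PIMT, had 670 reads in the control and 130 in the csPIMT-/- library at 2 months, and 928 and 156 at 6 months. Its normalized read count was thus 0.276 of the control at 2 months (95% counting interval 0.227 to 0.334) and 0.199 at 6 months (0.167 to 0.236). Reads of every exon and every heart cell are counted, 13.1% of the 50-base windows of the transcript also occur in the predicted gene *Gm5117*, and with the GC trend below taken out the ratios were 0.592 and 0.506. The tissue was heart by its markers, with all 9 cardiomyocyte markers present in every library. Their median csPIMT-/- over control ratio was 1.39 at 2 months and 1.18 at 6 months, with 3 and 4 of the 9 below 1. The lowest was titin, *Ttn*, at 0.572 and 0.291. Their summed normalized read count, 1959539 to 3660149 over the libraries, was 0.827 of the control at 2 months and 0.535 at 6 months. *Ttn* was the largest part of that sum in every library. The median ratio of 5 fibroblast markers was 0.923 and 2.01, that of 4 endothelial markers 0.715 and 1.27, that of 4 smooth muscle markers 3.86 and 0.789, and that of 3 macrophage markers 2.56 and 1.70. The part of these cells in the values of the 10 genes was not tested. The 2-month control library stood apart. It held 6 reads of the atrial gene *Bmp10*, against 1037 to 7159 in the others, and 1208 reads of *Myl7*, against 7770 to 34802. The 2-month csPIMT-/- library held 1432 reads of the brown fat gene *Ucp1*, against 10 to 106 in the others. Of the 5 brown fat markers *Elovl3*, *Adipoq* and *Plin1* were also highest in that library. *Cidea* was not, with 2077 reads there and 1154 to 2499 in the others. The 4 lung markers were highest in that library too, *Scgb1a1* with 113 reads against 0 to 7. For this reason the ratio against the control library of the other age is also given where it differs most or changes a call, and without the 2-month control library the fit over both ages, with genotype alone, called 3 of the 10 genes lower and 0 higher, against 8.62% and 1.85% of all genes. In whole hearts fewer cells of a type and less RNA per cell cannot be told apart.

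**Figure D1:**
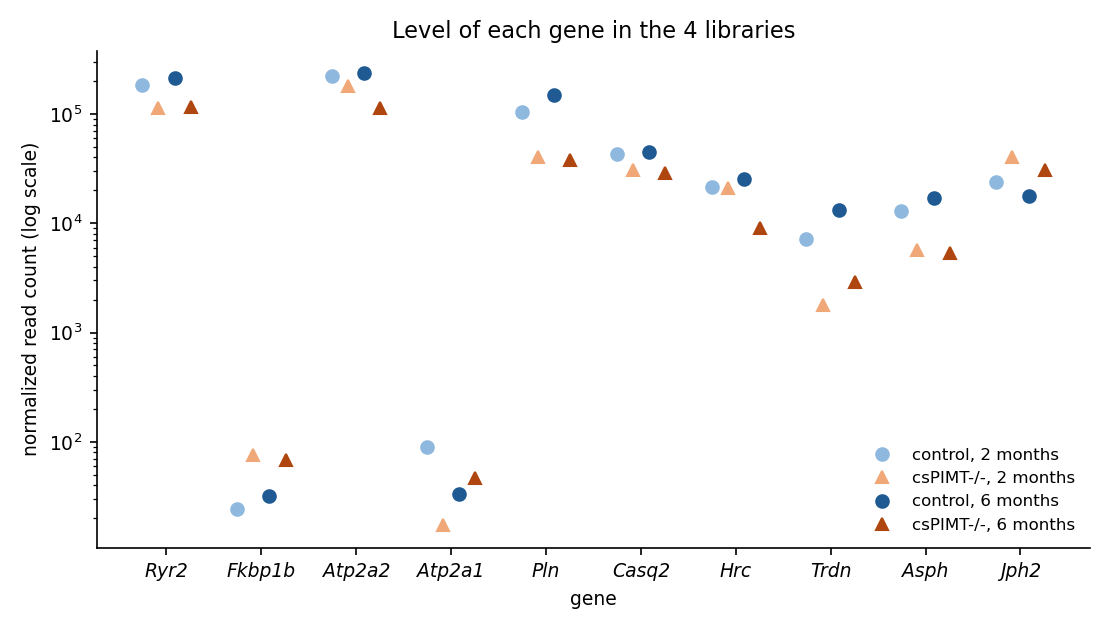
Normalized read count (log axis) of the 10 genes in the 4 libraries, circles for controls and triangles for csPIMT-/- hearts, with light colours for 2 months and dark for 6 months. *Ryr2*, *Atp2a2* and *Pln* lie near the top, *Fkbp1b* and *Atp2a1* below 100, and both triangles lie below both circles for *Ryr2*, *Atp2a2*, *Pln*, *Casq2*, *Trdn*, *Asph* and *Hrc*.

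*Ryr2* (chr13:11553102-12106945, GRCm38, minus strand) encodes the cardiac ryanodine receptor, the channel through which calcium leaves the store. Its normalized read count was 185727 in the 2-month control, 112845 in the 2-month csPIMT-/- library, 215067 in the 6-month control and 115655 in the 6-month csPIMT-/- library. Both csPIMT-/- libraries lay below both controls, and almost at the same level. The csPIMT-/- over control ratio was 0.608 at 2 months (95% counting interval 0.603 to 0.612) and 0.538 at 6 months (0.534 to 0.542). Such intervals cover counting error only, and with 1 library per group they say nothing of the spread between mice. In the fit over both ages the log2 difference was -0.81 (SE 0.303), and it did not pass (limma, adjusted p = 0.102). The *Ryr2* transcript is 16814 bases long, and subtracting the trend of the ratios on transcript length brought its log2 ratio to -0.08 at 2 months and -0.13 at 6 months.

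*Fkbp1b* (chr12:4833174-4841591, minus strand) encodes calstabin 2, a small protein bound to the ryanodine receptor that steadies its closed state. It had few reads, 28 in the 2-month control, 62 in the 2-month csPIMT-/- library, 36 in the 6-month control and 66 in the 6-month csPIMT-/- library. Both csPIMT-/- libraries lay above both controls, with a ratio of 3.16 at 2 months (95% counting interval 1.99 to 5.12) and 2.17 at 6 months (1.42 to 3.35). The log2 difference over both ages was 1.36 (SE 0.534, limma adjusted p = 0.113). Its close relative *Fkbp1a*, for calstabin 1, was far more abundant, at 2097 normalized reads per kilobase of transcript in the 2-month control against 24.8 for *Fkbp1b*. *Fkbp1a* had a ratio of 1.12 at 2 months and 1.75 at 6 months.

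*Casq2* (chr3:102086415-102146514, plus strand) encodes cardiac calsequestrin, the main calcium buffer inside the store. At 2 months the normalized read count was 42830 in the control and 30728 in the csPIMT-/- library, and at 6 months it was 44711 and 28800. The csPIMT-/- libraries lay below the controls, with ratios of 0.717 (95% counting interval 0.707 to 0.728) and 0.644 (0.635 to 0.654). The controls differed by a ratio of 1.04. The log2 difference over both ages was -0.56 (SE 0.230, limma adjusted p = 0.126).

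*Trdn* (chr10:33080554-33476709, plus strand) encodes triadin, which anchors calsequestrin to the ryanodine receptor. It had a normalized read count of 7214 in the 2-month control, 1789 in the 2-month csPIMT-/- library, 13153 in the 6-month control and 2877 in the 6-month csPIMT-/- library. It was the gene with the lowest ratio at 6 months, 0.219 (95% counting interval 0.210 to 0.228), and its ratio at 2 months was 0.248 (0.234 to 0.262). Over both ages *Trdn* fell by 2.10 on the log2 scale (SE 0.200, limma adjusted p = 0.0163). Apart from *Atp2a1*, its level differed most between the controls, at a ratio of 1.82 for 6 over 2 months, and against the control of the other age its log2 ratio was -2.88 at 2 months and -1.33 at 6 months.

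*Asph* (chr4:9448069-9669344, minus strand) encodes junctin, the partner of triadin at the receptor, and from the same gene an aspartyl hydroxylase and junctate. The counts do not separate these. The gene had a normalized read count of 12905 in the 2-month control, 5752 in the 2-month csPIMT-/- library, 17033 in the 6-month control and 5391 in the 6-month csPIMT-/- library. Both csPIMT-/- libraries were at about the same level, below both controls, with ratios of 0.446 (95% counting interval 0.431 to 0.461) and 0.317 (0.307 to 0.326). Over both ages *Asph* fell by 1.41 on the log2 scale (SE 0.226, limma adjusted p = 0.0196).

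*Hrc* (chr7:45335290-45338974, plus strand) encodes the histidine-rich calcium-binding protein, a second calcium buffer in the store that binds triadin and the pump. The normalized read count was 21697 in the 2-month control, 20845 in the 2-month csPIMT-/- library, 25365 in the 6-month control and 9066 in the 6-month csPIMT-/- library. The 6-month csPIMT-/- library was low and the other 3 were close together. The ratio was 0.961 at 2 months (95% counting interval 0.942 to 0.980) and 0.357 at 6 months (0.349 to 0.366), and these intervals do not overlap, but without replicates the difference between ages was not tested. The log2 difference over both ages was -0.77 (SE 0.381, limma adjusted p = 0.179).

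*Jph2* (chr2:163336242-163397993, minus strand) encodes junctophilin 2, which holds the store close to the transverse tubule. It stood at a normalized read count of 23675 in the 2-month control, 40123 in the 2-month csPIMT-/- library, 17813 in the 6-month control and 30427 in the 6-month csPIMT-/- library. As for *Fkbp1b*, both csPIMT-/- libraries lay above both controls. The ratio was 1.69 at 2 months (95% counting interval 1.67 to 1.72) and 1.71 at 6 months (1.68 to 1.74). The log2 difference over both ages was 0.77 (SE 0.218) and missed the threshold (limma adjusted p = 0.0555). Against the control of the other age the log2 ratio was 1.17 at 2 months and 0.36 at 6 months, since the controls themselves differed by a ratio of 0.752.

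*Atp2a2* (chr5:122453513-122502225, minus strand) encodes SERCA2, the pump that refills the store. Its normalized read count was 223109 in the 2-month control, 180058 in the 2-month csPIMT-/- library, 235416 in the 6-month control and 114264 in the 6-month csPIMT-/- library. The controls differed by a ratio of 1.06, and the 6-month csPIMT-/- library was the lowest. The ratio was 0.807 at 2 months (95% counting interval 0.802 to 0.812) and 0.485 at 6 months (0.482 to 0.489). Against the 2-month control the log2 ratio of the 6-month csPIMT-/- library was -0.97, inside 2-fold. With the trend on transcript length subtracted, the log2 ratios of *Atp2a2* were -0.004 at 2 months and -0.72 at 6 months. Over both ages the log2 difference was -0.68 (SE 0.353, limma adjusted p = 0.199). Of the 50-base windows of its transcript 4.58% also occur in the predicted gene *Gm30970*.

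*Pln* (chr10:53337667-53345987, plus strand) encodes phospholamban, the inhibitor of SERCA2 whose coding sequence is given above. Its normalized read count was 105003 in the 2-month control, 40819 in the 2-month csPIMT-/- library, 147791 in the 6-month control and 37939 in the 6-month csPIMT-/- library. Both csPIMT-/- libraries were at about the same level, below both controls. The ratio was 0.389 at 2 months (95% counting interval 0.384 to 0.394) and 0.257 at 6 months (0.254 to 0.260). Over both ages *Pln* fell by 1.66 on the log2 scale (SE 0.288, limma adjusted p = 0.0220). Exons of *Cep85l* overlap those of *Pln* on the opposite strand, and the strand setting of the counting is not given in the sources used here.

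*Atp2a1* (chr7:126445858-126463108, minus strand) encodes SERCA1, the pump of fast skeletal muscle. It had 103 reads in the 2-month control, 14 in the 2-month csPIMT-/- library, 38 in the 6-month control and 45 in the 6-month csPIMT-/- library. The 2-month control was high, the 2-month csPIMT-/- library low and both 6-month libraries lay between. The ratio was 0.194 at 2 months (95% counting interval 0.102 to 0.340) and 1.40 at 6 months, with an interval that includes 1 (0.889 to 2.22), while the controls differed by a ratio of 0.375 (0.251 to 0.549). Against the control of the other age its log2 ratio was -0.92 at both ages, so that its direction at 6 months turned. The log2 difference over both ages was -0.91 (SE 0.823, limma adjusted p = 0.426). Of 10 fast skeletal muscle markers, only the myosin heavy chain genes *Myh1* and *Myh4* stood in the same order over the libraries as *Atp2a1*. A further fast myosin heavy chain gene, *Myh2*, did not. *Myh1* had 191, 5, 48 and 121 reads in the 2-month control, 2-month csPIMT-/-, 6-month control and 6-month csPIMT-/- libraries, *Myh4* had 235, 21, 36 and 122, and *Myh2* had 36, 4, 2 and 28. Of 10 fast skeletal muscle markers 5 were below the control and 4 above at 2 months, 2 below and 7 above at 6 months. *Tnnc2* had no read in either control, and the summed normalized read count of the list was 1374 to 2281. *Myl1* was the largest part of that sum in every library. It had 773, 1012, 1735 and 1651 reads in the same order of libraries, lowest in the 2-month control. The part of skeletal muscle RNA in the values of *Atp2a1* was not tested.

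**Figure D2:**
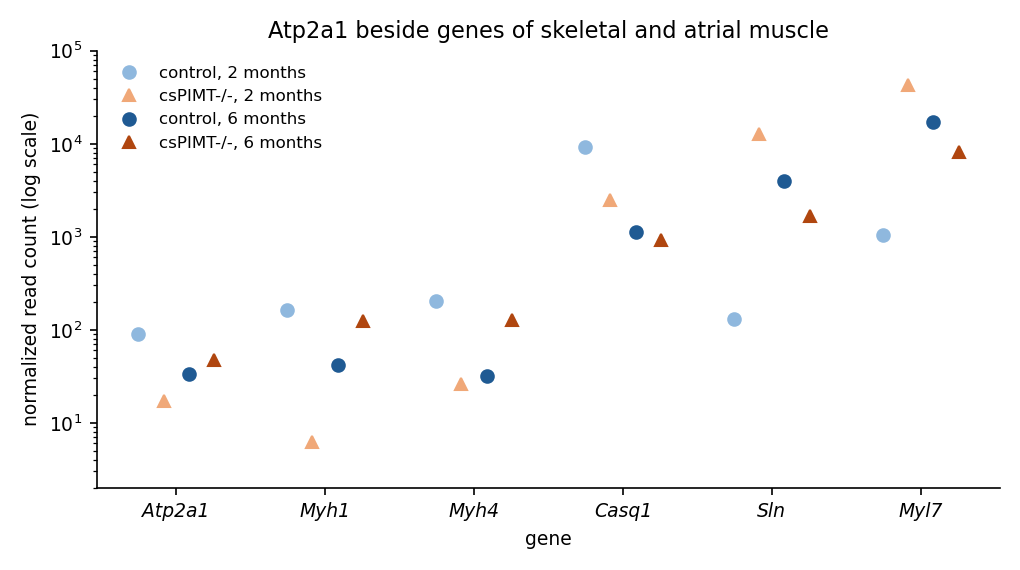
Normalized read count (log axis) in the 4 libraries of *Atp2a1*, the fast skeletal myosins *Myh1* and *Myh4*, skeletal calsequestrin *Casq1*, and the atrial genes *Sln* and *Myl7*, with circles for controls and triangles for csPIMT-/- hearts. *Atp2a1*, *Myh1* and *Myh4* are each highest in the 2-month control and lowest in the 2-month csPIMT-/- library, while *Sln* and *Myl7* are lowest in the 2-month control. The other fast skeletal muscle markers of the list are not drawn and do not have the order of *Atp2a1*.

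**Figure D3:**
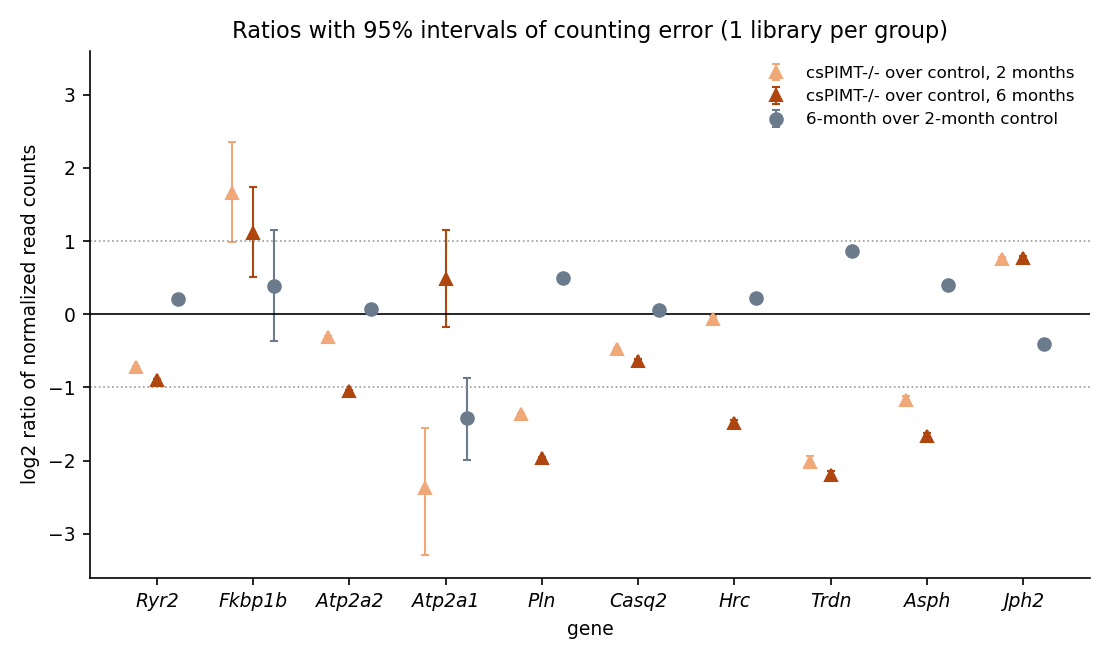
log2 ratio of normalized read counts of each gene, csPIMT-/- over control at 2 months (light triangles) and 6 months (dark triangles) and 6-month over 2-month control (grey circles), with 95% intervals of counting error from 1 library per group and dotted lines at a ratio of 0.5 and 2. *Trdn*, *Pln* and *Asph* lie below a ratio of 0.5 at both ages, *Fkbp1b* above 2 at both, and *Atp2a1* only at 2 months.

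A ratio below 0.5 was found for 4 of the 10 genes at 2 months, *Atp2a1*, *Trdn*, *Pln* and *Asph*, where 22.5% of 15152 genes compared had one. A ratio above 2 was found for 1, *Fkbp1b*, against 17.3% of all genes. At 6 months 5 genes were below 0.5, *Trdn*, *Pln*, *Asph*, *Hrc* and *Atp2a2*, against 24.9% of 15218 genes, and 1 was above 2, *Fkbp1b*, against 16.9%. At both ages 3 genes were below 0.5, *Trdn*, *Pln* and *Asph*, against 16.0% of 14781 genes, and *Fkbp1b* was above 2, against 7.73%. The median log2 ratio of the 10 genes was -0.60 at 2 months and -0.97 at 6 months, while that of all genes was 0.00 at both ages. With the GC trend taken out the medians of the 10 were -0.37 and -0.39, and those of all genes -0.08 and -0.03. Between the controls, which share the genotype and differ in age and in the atrial genes above, the median of the 10 genes was 0.22 and that of all genes 0.07. There 1 of the 10, *Atp2a1*, was below a ratio of 0.5, against 4.65% of 15132 genes, and none was above 2, against 9.01%.

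Over both ages 3 of the 10 genes were lower by limma, *Pln*, *Trdn* and *Asph*, where 17.5% of 14847 genes tested were lower. None was higher, against 11.0%, and 5 of the 10 had an unadjusted p under 0.05, as did 45.3% of all genes. On the recovered reads edgeR's quasi-likelihood test also gave 3 lower and 0 higher, where 2521 and 1637 of all 14847 genes were. DESeq2 gave 4 lower and 1 higher, against 20.1% and 14.8% of all genes, with *Ryr2* (adjusted p = 0.0212) and *Jph2* (adjusted p = 0.0251) added. With 4 libraries and 3 coefficients only 1 residual degree of freedom remains, which is how far the genotype difference departs between the 2 ages. In limma it is joined with the departures of other genes at a like level, which count as 4.01 prior degrees of freedom. Both stand in for replicate spread, and neither measures the spread between mice. Without the 6-month control library, in a fit with genotype alone, none of the 10 passed, and 2.47% of all genes were lower. There the log2 difference was -1.42 for *Pln* (adjusted p = 0.0636), -1.67 for *Trdn* (adjusted p = 0.0501) and -1.21 for *Asph* (adjusted p = 0.0612). Without a trend of the variance on the level none passed either, of the 10 or of all genes, although 5965 genes had an unadjusted p under 0.05.

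The ratios followed GC content. Across genes, which are not independent replicates and here share the same 2 libraries, Spearman's rho of the log2 ratio on the GC content of the transcript was 0.594 at 2 months over 13748 genes and 0.620 at 6 months over 13787 genes, and -0.270 between the controls. The transcripts of *Trdn* and *Pln* had a GC content of 36.8% and 38.6%, those of *Asph* and *Casq2* 44.7% and 47.2%, and those of *Ryr2*, *Atp2a2*, *Hrc*, *Fkbp1b* and *Atp2a1* lay between 49.6% and 55.3%. *Jph2* had the highest, 61.8%. The median of the genes compared at 2 months was 50.3%.

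After the lowess trend over all genes was subtracted, *Pln* had a ratio of 1.12 at 2 months and 0.804 at 6 months. The ratio of *Trdn* became 0.826 and 0.724, that of *Asph* 0.723 and 0.597 and that of *Casq2* 0.882 and 0.868. *Jph2* became 0.945 and 0.960, so that its direction turned, while *Fkbp1b* remained above 1, at 2.17 and 1.47. *Hrc* and *Atp2a2*, of a GC content above the median, moved further from 1, to 0.702 and 0.253 for *Hrc* and to 0.719 and 0.426 for *Atp2a2*. *Ryr2* stayed where it was, at 0.601 and 0.547. So adjusted, 1 gene was below 0.5 at 2 months, *Atp2a1*, at 0.121, and 2 at 6 months, *Hrc* and *Atp2a2*, where 13.4% and 13.6% of all genes were. For limma a GC trend was instead subtracted from each library. No gene, of the 10 or of all 13469 that could be fitted, passed limma then, and 3246 of all genes had an unadjusted p under 0.05. The deleted gene, *Tgs1*, had a log2 difference of -2.09 before this (limma adjusted p = 0.0184) and -0.77 after it (limma adjusted p = 0.208). The part of GC content in the ratios of the 10 genes was not tested beyond these adjustments.

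**Figure D4:**
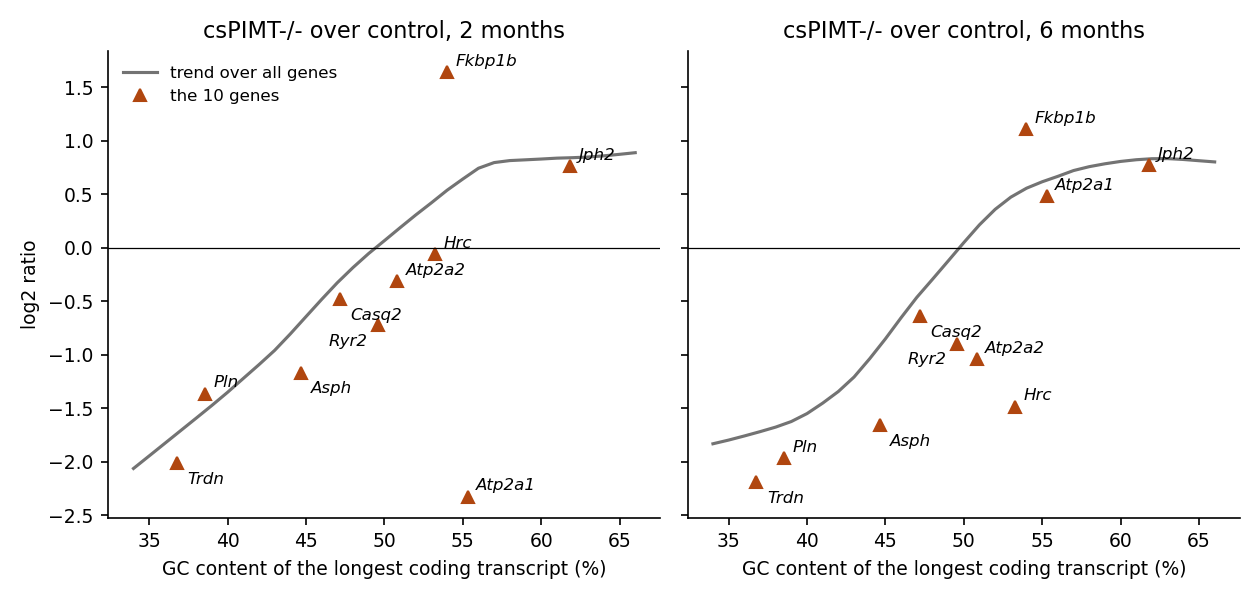
log2 ratio of csPIMT-/- over control of the 10 genes (triangles) against the GC content of their longest coding transcript in percent, at 2 months (left) and 6 months (right), with the lowess trend over all genes as a line. *Pln*, *Trdn* and *Jph2* lie near the line at both ages, and *Hrc* and *Atp2a2* lie well below it at 6 months.

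Levels per length placed the pump and its inhibitor first. In the 2-month control *Atp2a2* had 49735 normalized reads per kilobase of transcript, *Pln* 44988, *Casq2* 16757, *Ryr2* 11046, *Hrc* 8999 and *Jph2* 5622. *Asph* and *Trdn* followed with 1928 and 1598, and *Atp2a1* and *Fkbp1b* had 25.6 and 24.8. In the 6-month control *Pln* was the first, at 63321 against 52478 for *Atp2a2*. In the csPIMT-/- libraries *Atp2a2* was the first, at 40138 against 17489 for *Pln* at 2 months and 25471 against 16255 at 6 months. These are levels of single libraries, so that neighbours in the order have no spread to be set against. Together the 10 genes took 1.80% of all reads in the control and 1.18% in the csPIMT-/- library at 2 months, and 2.00% and 0.916% at 6 months.

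Ratios of reads of gene pairs within a library need no scaling between libraries. Per 100 reads of *Atp2a2*, *Pln* had 47.1 in the control and 22.7 in the csPIMT-/- library at 2 months, and 62.8 and 33.2 at 6 months, or 0.482 and 0.529 of the control. With the GC trend subtracted these became 1.56 and 1.89, so that the direction turned. *Jph2* had 12.7 and 8.28 reads per 100 reads of *Ryr2* in the controls and 35.6 and 26.3 in the csPIMT-/- libraries, 2.79 and 3.18 times the control, or 1.57 and 1.75 times with the GC trend subtracted. *Trdn* had 3.88 and 6.12 reads per 100 of *Ryr2* in the controls and 1.59 and 2.49 in the csPIMT-/- libraries, 0.408 and 0.407 of the control, which became 1.37 and 1.32. *Asph* per *Ryr2* was 0.734 and 0.589 of the control, which turned to 1.20 and 1.09. *Casq2* per *Ryr2* was 1.18 and 1.20 times the control, and 1.47 and 1.59 times with the GC trend subtracted. *Hrc* per *Ryr2* was 1.58 times the control at 2 months and 0.665 at 6 months, and 1.17 and 0.463 after subtraction. The order of the 2 ages for *Hrc* was therefore the same with and without it.

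**Figure D5:**
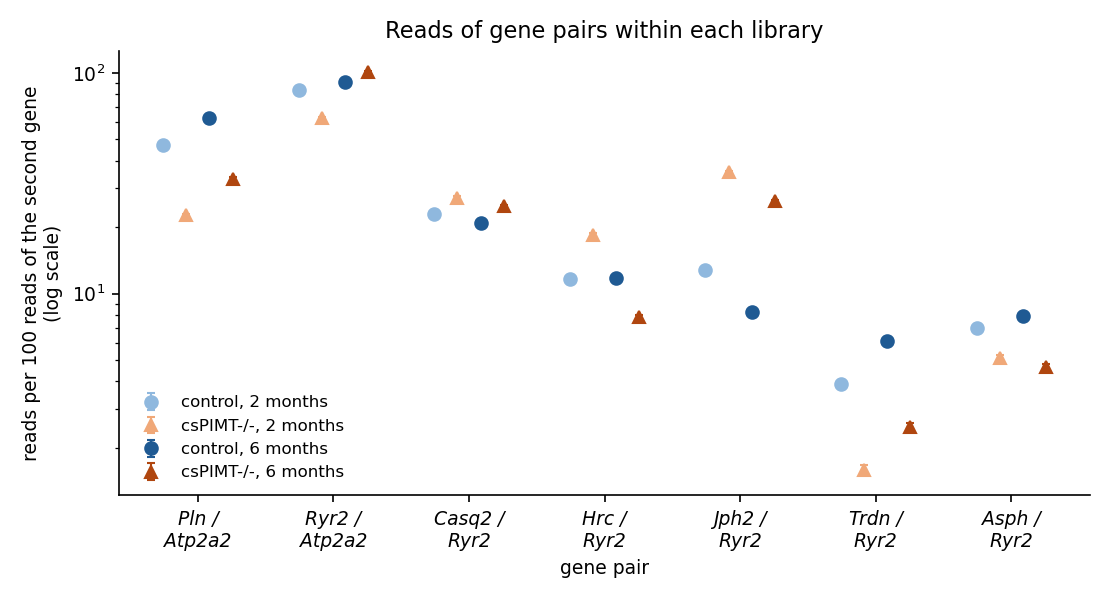
Reads of the first gene of each pair per 100 reads of the second (log axis) in the 4 libraries, with 95% intervals of counting error that are mostly smaller than the symbols, circles for controls and triangles for csPIMT-/- hearts. *Pln* per *Atp2a2*, *Trdn* per *Ryr2* and *Asph* per *Ryr2* are lower in csPIMT-/- hearts at both ages and *Jph2* per *Ryr2* higher, before adjustment for GC content, while *Hrc* per *Ryr2* is higher at 2 months and lower at 6 months.

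The genes with profiles over the 4 libraries nearest to *Ryr2*, among 6403 genes with a mean normalized read count of at least 1000, were *Acot13*, *Syne2* and *Atrn*, at Euclidean distances of 0.0505, 0.0591 and 0.0648 between centred log2 profiles. Nearest to *Atp2a2* were *Neo1*, *Gfm1* and *Yars2*, at distances of 0.0373, 0.0580 and 0.0715. *Acot13* had a normalized read count of 5497 and 6302 in the controls and 3463 and 3477 in the csPIMT-/- libraries. *Neo1* had 6334 and 6800 in the controls and 5128 and 3351 in the csPIMT-/- libraries.

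Other genes of the sarcoplasmic reticulum and its calcium were listed by role, and 28 were found, of which 27 could be compared. At 2 months 4 of the 27 were below a ratio of 0.5 and 6 above 2, against 22.5% and 17.3% of all genes. At 6 months 4 were below and 7 above, against 24.9% and 16.9%. With the GC trend taken out 1 was below and 5 above at 2 months, against 13.4% and 12.8% of all genes. At 6 months 2 were then below and 5 above, against 13.6% and 13.0%. The median log2 ratio of the 27 was 0.49 and 0.66, and with the GC trend taken out 0.01 and 0.21. By limma 2 were lower over both ages, *Ppp1r3a* and *Calu*, and 4 were higher, *S100a1*, *Hspb6*, *Jsrp1* and *Itpr3*. That is 2 and 4 of 27, beside the background of all genes given above.

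*S100a1*, a small calcium sensor that binds SERCA2 and the ryanodine receptor, had a normalized read count of 9713 in the control and 26757 in the csPIMT-/- library at 2 months, and 13214 and 31242 at 6 months. This gave ratios of 2.75 (95% counting interval 2.69 to 2.82) and 2.36 (2.32 to 2.41), and it rose by limma (log2 difference 1.35, SE 0.214, adjusted p = 0.0195). *Jsrp1*, for a protein of the skeletal muscle junction, had 35 and 47 reads in the controls and 153 and 332 in the csPIMT-/- libraries, with ratios of 6.23 and 8.36 (limma adjusted p = 0.0186). After subtraction of the GC trend the ratios of *S100a1* were 1.91 and 1.61 and those of *Jsrp1* 3.41 and 4.74. *Hspb6*, a small heat shock protein that limits the dephosphorylation of phospholamban, had ratios of 2.47 and 1.84, or 1.54 and 1.18 after subtraction. *Itpr3*, an inositol trisphosphate receptor, had 1.88 and 2.53, or 1.07 and 1.51.

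*Ppp1r3a*, which targets protein phosphatase 1 to glycogen and the sarcoplasmic reticulum, had a normalized read count of 8798 and 15846 in the controls and 2205 and 3851 in the csPIMT-/- libraries. Its ratios were 0.251 and 0.243, and like *Trdn* it has a transcript of low GC content, 36.7%. It fell by 2.02 on the log2 scale (SE 0.196, limma adjusted p = 0.0163), and its ratios were 0.838 and 0.806 with the GC trend subtracted. *Calu*, for calumenin, which binds calcium in the store and SERCA2, had ratios of 0.418 and 0.378 (limma adjusted p = 0.0185), or 0.651 and 0.678 after subtraction.

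Relatives of the 10 genes were also measured. *Casq1*, the skeletal calsequestrin, had 10692 reads in the 2-month control, 2036 in the 2-month csPIMT-/- library and 1292 and 890 in the control and csPIMT-/- libraries of 6 months. The 2-month control was high and the others lay well below, with ratios of 0.271 at 2 months, 0.815 at 6 months and 0.123 between the controls. *Jph1*, the skeletal junctophilin, had ratios of 0.488 and 0.864, while *Jph2* was above 1 at both ages before adjustment for GC content. With the GC trend subtracted *Jph1* had 0.634 and 1.24 and *Jph2* 0.945 and 0.960. *Atp2a3*, for SERCA3, had 1.21 and 2.79, or 0.695 and 1.68 after subtraction. *Ryr1*, the skeletal release channel, had 11 to 33 reads in the 4 libraries and ratios of 1.70 and 3.55. After subtraction those of *Ryr1* were 0.964 and 2.10. *Sln*, for sarcolipin, the atrial inhibitor of the pump, had 150 reads in the 2-month control, 10243 in the 2-month csPIMT-/- library and 4544 and 1619 in the 6-month control and csPIMT-/- libraries. It stood in the order of the atrial markers *Myl4*, *Myl7* and *Bmp10*. All 5 atrial markers were above the control at 2 months and 4 of 5 below it at 6 months. *Sln* is itself one of the 5, and the summed normalized read count of the list, 40742 to 349424, includes it. None was at 0, and the part of the other markers in the value of *Sln* was not tested.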

How the data were processed

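The authors extracted RNA from hearts, pooled 5 hearts per group, selected polyadenylated RNA, made directional libraries and sequenced single 50-base reads. They trimmed and filtered the reads, aligned them to mm10 with STAR and counted them per gene with HTSeq 0.6.1p1, and DESeq2 is named in the submitters' processing notes. The deposited signal is a normalized read count per gene symbol, whose steps give whole reads (100% of values within 1e-06 reads, 1 read being worth 0.865 to 1.23). Although 1 header, that of the csPIMT-/- hearts of 6 months, names read counts, those numbers are fractional and were treated as normalized too. Reads were recovered by dividing by the step, and no further scaling was applied.

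Ratios at 1 age compare 2 libraries, not the genotypes, and have no test. Genes needed 10 reads in 1 of the 2 libraries, log2 ratios a pseudocount of 0.5 reads, and intervals are Clopper-Pearson (95%). The fit over both ages used limma 3.58.1 on log2(normalized count + 1) with genotype, age and a variance trend (prior degrees of freedom 4.01). Tested genes had a value of at least 10 in 2 libraries, and Benjamini-Hochberg adjustment was used. Its fold changes are on the log2(value + 1) scale. A check on simulated counts required only that known log2 differences were recovered. Those counts had no GC trend, so the check cannot show how the test behaves in these libraries. edgeR 4.0.16 and DESeq2 1.42.0 were run on the recovered reads as alternatives. GC content and length are those of the longest coding transcript in GENCODE M21, found for 89.8% of symbols, with a lowess span of 0.3. The GC trend was fitted to log2 ratios, and for limma to each library's departure from the gene's mean, with less weight for outlying genes. The labels give no batch or date. The 10 genes and all lists were chosen with earlier results of these data known. Named were the 10 genes, *Tgs1*, listed genes past 2-fold at both ages, relatives of the 10, and the 3 profiles nearest to *Ryr2* and *Atp2a2*. *Hspb6* and *Itpr3*, which passed limma, and the markers with single values were named after their values were seen. *Clic2* and *Adgre1* were not found by symbol, and *Jph3* had too few reads to compare.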

Additional observations from a re-analysis of the deposited data

Results flagged for a closer look

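Genes of the sarcoplasmic reticulum lists whose ratio lay on opposite sides of 1 at 2 and 6 months were picked out. The whole 95% counting interval at each age had to do so. With 1 library per group this difference between the ages was not tested. The lists of cell type markers were not searched, and some of their genes also met the rule, such as *Myl2* (1.39 and 0.925) and *Postn* (0.367 and 1.83). *Ryr3*, the third ryanodine receptor, had a ratio of 9.50 at 2 months (66 reads in the control, 440 in the csPIMT-/- library) and 0.482 at 6 months (787 and 321 reads). *Sln* had 97.3 and 0.421. *Itpr2*, an inositol trisphosphate receptor, had 0.543 and 1.05, the latter with an interval just above 1 (1.003 to 1.104). *Ppp1r1a*, an inhibitor of protein phosphatase 1, had 2.03 and 0.614. For *Ryr3* and *Sln* the 2-month control was the lowest library and the controls differed by ratios of 12.1 and 30.8. The same library was the lowest in the atrial markers *Myl4*, *Myl7*, *Nppa* and *Bmp10*, and their part in these values was not tested.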

How the results depend on the processing

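When the GC trend was subtracted, the number of the 10 genes with a ratio below 0.5 moved from 4 to 1 at 2 months. At 6 months it moved from 5 to 2. Of all genes 13.4% and 13.6% were then below 0.5. Against the control of the other age the number was 3 and 4. Relative to the median of 9 cardiomyocyte markers it was 5 and 6. That alternative was added once the data had been seen and centres on log2 values of 0.47 and 0.24. It shifts the ratios of all genes alike. With the length trend subtracted the number was 3 and 4, without *Asph* at 2 months and without *Atp2a2* at 6 months. For the alternatives other than the GC trend the share of all genes is not given here, so these counts have no background beside them. The number above 2 moved at 2 months from 1 to 2 against the control of the other age and with the length trend subtracted, and to 0 with a minimum of 100 reads, which *Fkbp1b* does not reach, or when the whole interval had to pass. At 6 months it moved from 1 to 0 with the GC trend subtracted, with a minimum of 100 reads, with the whole interval past 2-fold and relative to the cardiomyocyte markers. Over both ages the count of lower genes went from 3 to 0 with the GC trend subtracted and without a variance trend, and that of higher genes from 0 to 1 with values of at least 100 in 2 libraries and with DESeq2. In fits with genotype alone that left out 1 library each, 0 to 4 genes were lower and 0 higher. Leaving out the 6-month control gave the 0, and leaving out the 2-month csPIMT-/- library added *Hrc* (adjusted p = 0.0354).

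With the GC trend subtracted from the ratios, the log2 ratio of *Pln* turned to 0.16 at 2 months and was -0.31 at 6 months. With a GC trend subtracted from each library, the limma difference over both ages turned to 0.030 for *Pln* (adjusted p = 0.955). For *Jph2* that difference turned to -0.012 (adjusted p = 0.977). Over the 14 alternatives the adjusted p ran from 1.53e-06 to 0.955 for *Pln*, 2.63e-10 to 0.479 for *Trdn* and 5.56e-05 to 0.224 for *Asph*, each under 0.05 in 11. The cause was not tested. The count of lower calls among all genes was 2595 in the main fit. It rose to at most 2988, with DESeq2, and fell to 0 with the GC trend subtracted or without a variance trend. Leaving out the 6-month control library also lowered it. No paired analysis was possible because each group was 1 pooled library. The age term already sets each csPIMT-/- library against the control of its age. The reads of *Fkbp1b*, *Atp2a1* and *Ryr1* limit their precision, and for the others the lack of replicates does.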
